A study of Mus musculus with 40 samples.

Results

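The 10 genes described here are the mouse orthologs of human genes that lie at Alzheimer risk loci: Bin1, Picalm, Cd2ap, Sorl1, Ptk2b, Fermt2, Cass4, Abi3, Abca7 and Clu. The rule that picks them is their gene name. They are 10 of the 43346 genes in the count table, and all 10 were among the 21253 genes that passed the filter on low counts, which asked for at least 10 counts in at least 4 of 40 libraries. Common variants near such genes carry risk for late-onset Alzheimer's disease, and their products fall into a few cellular tasks: taking up and sorting membrane proteins, linking actin to adhesion sites, and moving or binding lipids. The sorting of the amyloid precursor protein through endosomes affects how much amyloid-β a neuron releases, while microglia and astrocytes take up and coat what is released. In the brain some of these genes are read mainly in neurons or oligodendrocytes, and others mainly in microglia or astrocytes, so that a level in whole cortex sums several cell types.

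By role, the endocytic and sorting genes are Bin1, which bends membranes into tubules, Picalm, a clathrin assembly protein, Cd2ap, an adaptor between receptors and actin, and Sorl1, a receptor that carries the amyloid precursor protein between Golgi and endosomes. The adhesion and actin genes are Ptk2b, a calcium-responsive tyrosine kinase related to focal adhesion kinase, Fermt2, an activator of integrins, Cass4, a scaffold of focal adhesions, and Abi3, a subunit of the actin-nucleating WAVE complex that is found in the brain mainly in microglia. The lipid genes are Abca7, a transporter of phospholipids, and Clu, which encodes clusterin, a secreted chaperone of lipoprotein particles made in the brain mainly by astrocytes.

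The RNA came from the cortex of 40 mice in 4 groups of 10, each of 5 females and 5 males, and the study asked what the H157Y variant of Trem2 does with and without amyloid. Trem2 is a lipid-sensing receptor of microglia, and the variant was placed in the mouse gene by CRISPR/Cas9. The 2 non-amyloid groups, wild type for Trem2 (non-amyloid WT) and homozygous for the variant (non-amyloid Hom), carried no amyloid transgene and were 6 months old. The 2 amyloid groups, amyloid WT and amyloid Hom, were hemizygous for 5xFAD and 8.5 months old. The 5xFAD transgenes, which include human APP with familial Alzheimer mutations, are driven by the Thy1 promoter, which is active mainly in neurons. Because the transgenic mice were also the older ones, the effects of age and of the transgenes cannot be told apart in any cohort difference. The strain background of each mouse and the founder line behind each library are not given in the labels, and no mouse received a treatment. The study reports its results from a single founder line unless it says otherwise, and names no other for the RNA sequencing.

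Total counts per library ran from 41646271 to 105903846, with a median of 77193387. The median total was 73990977 in non-amyloid WT, 83819286.5 in non-amyloid Hom, 78134526.5 in amyloid WT and 70298502.5 in amyloid Hom. Among the 10 genes, Cass4 had the fewest counts, from 12 to 62 per library, and Abi3 came next with 79 to 837. Abca7 had 604 to 2123 counts, and Clu had the most at 25555 to 101328. The other 6 genes had at least 1761 counts in every library (Cd2ap), so counting error was largest for Cass4 and Abi3.

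Replicate 19, an amyloid Hom female, stood apart from the other 39 libraries. It had the lowest total, against 62272158 for the next. It also placed 0.299% of its counts on 139 genes that lie under exons of a gene at least 10 times as abundant on the opposite strand over at least 50% of their exonic bases. In the other 39 libraries that share was 0.0141% to 0.0186%. Results that rest on this library are given with and without it.

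The labels were checked against the counts. Levels are given as CPM, the count scaled to a library of fixed size after TMM normalisation. Xist was at least 277.75 CPM in every female and at most 0.413 CPM in every male. Ddx3y, a Y-linked gene, was at least 67.9 CPM in every male and at most 0.222 CPM in every female but amyloid Hom replicate 3, where it was 3.04 CPM beside 1136 CPM of Xist. Thy1, whose promoter drives the transgenes, averaged 627 ± 79.9 CPM (SD, n = 10) in non-amyloid WT and 634 ± 71.6 CPM in non-amyloid Hom, against 1956 ± 370 CPM in amyloid WT and 1575 ± 250 CPM in amyloid Hom. Counts per gene cannot show the base change in Trem2 itself. Markers of cortical cells were present: Snap25 of neurons averaged 3247 ± 319.8 CPM (SD, n = 40) and Slc1a2 of astrocytes 3317 ± 420.6 CPM, and all 10 microglial markers were above 0 in every library.

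Per kilobase of the gene length given in the table, the mean level over 40 libraries was highest for Clu at 199.4 ± 38.6 CPM per kb (SD). Bin1 at 69.2 CPM per kb and Ptk2b at 64.8 CPM per kb followed, and these neighbours differed by less than their summed SDs, as did Picalm at 47.5 and Sorl1 at 42.4 CPM per kb. Fermt2 stood at 25.3, Cd2ap at 6.50, Abca7 at 2.40, Abi3 at 0.929 and Cass4 at 0.0807 CPM per kb. With all merged GENCODE exons as the length, Bin1 was at 41.2 CPM per kb and came 4th, below Ptk2b and, by less than their summed SDs, below Sorl1. Picalm was then at 12.6 CPM per kb, below Fermt2 at 18.3, and Cd2ap at 2.21 CPM per kb, below Abca7 by less than their summed SDs. Clu stayed at the top, and Abi3 and Cass4 at the bottom.

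**Figure D1:**
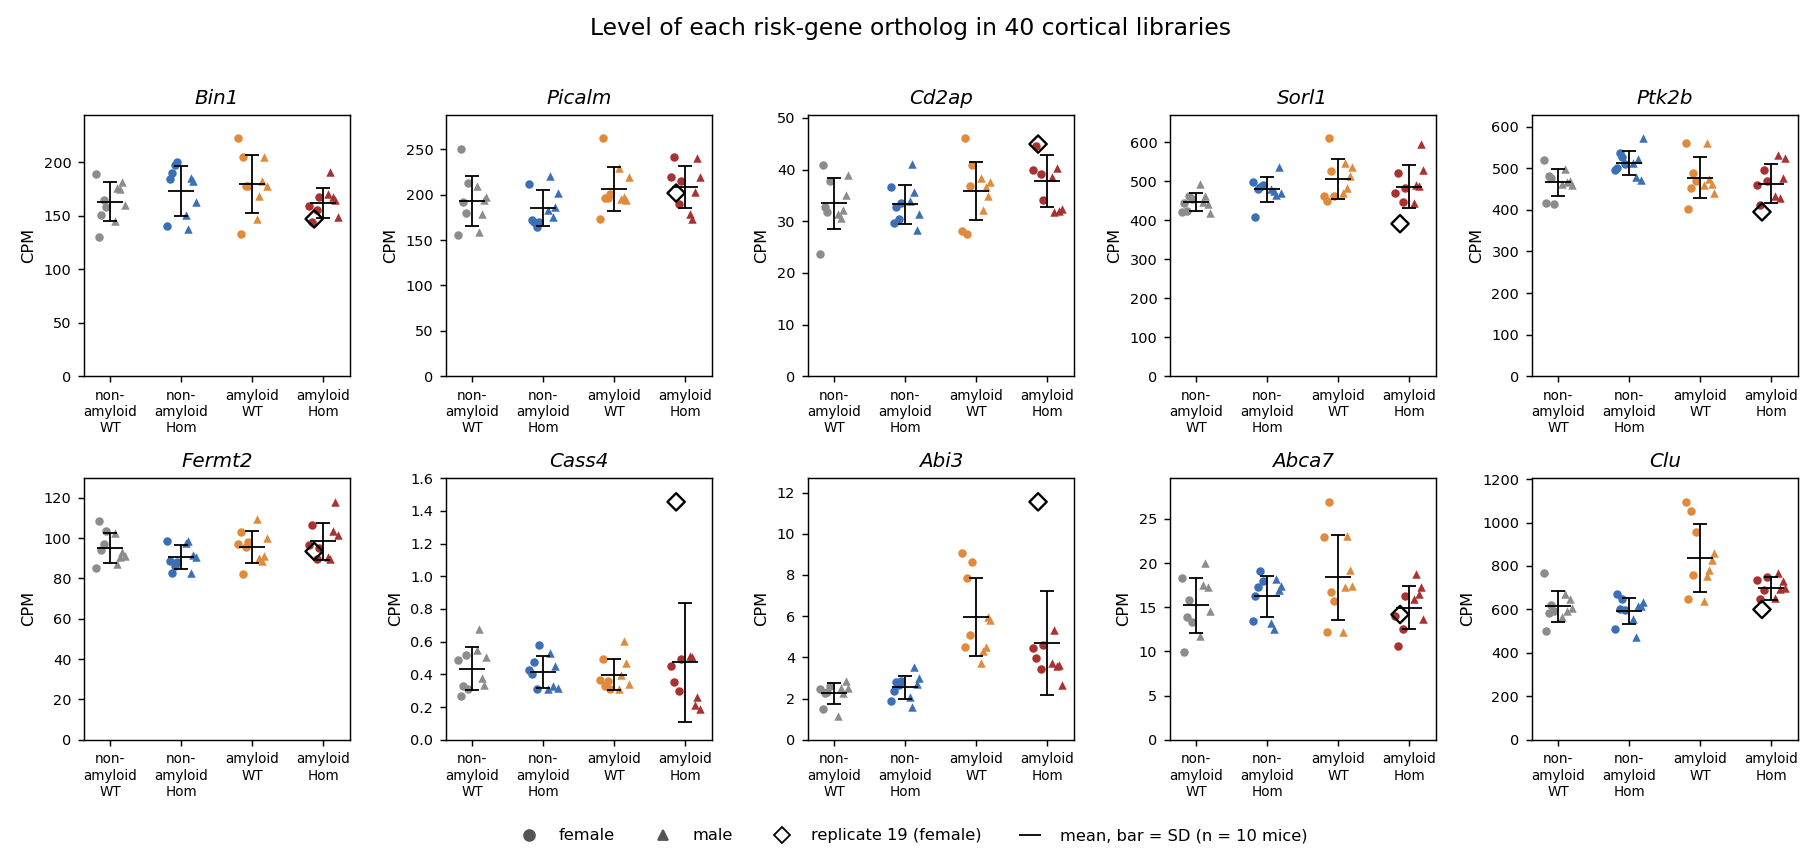
Normalised level (CPM) of each of the 10 genes in each library by group, with the group mean and SD. Abi3 and Clu stand higher in the amyloid groups, and replicate 19 is the highest point for Abi3 and Cass4.

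In the mm10 annotation the genes lie on 8 chromosomes. Clu (ENSMUSG00000022037, chr14:65968483-65981548, plus strand) and Ptk2b (ENSMUSG00000059456, chr14:66153257-66281052, minus strand) are 171.7 kb apart, and Fermt2 (ENSMUSG00000037712, chr14:45458792-45530118, minus strand) is on the same chromosome. Cd2ap (ENSMUSG00000061665, chr17:42792951-42876424, minus strand) shares chromosome 17 with the edited Trem2 and starts 5.47 Mb from it. Picalm (ENSMUSG00000039361) is at chr7:90130232-90209447 on the plus strand, Sorl1 (ENSMUSG00000049313) at chr9:41964720-42124297 on the minus strand, and Abca7 (ENSMUSG00000035722) at chr10:79996494-80015572 on the plus strand. Cass4 (ENSMUSG00000074570) is at chr2:172393794-172433757 on the plus strand, and Bin1 (ENSMUSG00000024381) is on chromosome 18.

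Abi3 (ENSMUSG00000018381, chr11:95830074-95842476, minus strand) is the member with the most sequence under other genes: 75.8% of its 4153 exonic bases lie under exons of genes on the plus strand. Zfp652, a zinc finger gene with a median of 70.8 CPM against 3.22 CPM for Abi3, covers 2913 of these bases, Phospho1 covers 1708 and Gngt2 covers 234. These medians are CPM scaled by library total alone, without TMM. By them Abi3 is itself among the 139 genes under a far more abundant opposite-strand gene, on which replicate 19 had its raised share. The same share was 21.2% for Cass4, 6.22% for Bin1 and 1.63% for Sorl1. Whether counting was done by strand is not given in the sources used here. In replicate 19, the library with the raised share of counts on overlapped genes, Abi3, Cass4 and Cd2ap had their highest level of the amyloid Hom group, and Cd2ap, with 0% of its exonic bases under such exons, was at 44.9 CPM against 44.5 CPM in the next library.

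Differences below are log2 fold changes from edgeR with its standard error (SE). A gene is called when its Benjamini-Hochberg adjusted p over all 21253 genes is under 0.05 and its absolute log2 difference is over 0.25. Cohort comparisons in WT and in Hom mice share the fit of all 40 libraries. The amyloid groups of the cohort comparisons are also the groups of the genotype comparison in the amyloid cohort. The non-amyloid groups are likewise those of the genotype comparison in the non-amyloid cohort, and every group enters the interaction. These comparisons therefore share libraries.

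The cohort comparison in WT mice asks how cortex with 5xFAD at the older age differs from younger cortex without it when Trem2 is intact. Abi3 and Clu were higher in amyloid WT, Sorl1 was slightly higher below the fold threshold, and the other 7 genes did not pass the test. edgeR called 2 of the 10 genes, both up, while 7.95% of all genes were called (1689 genes, 1407 of them up). At an unadjusted p under 0.05 the count was 4 of 10, beside 20.9% of all genes. The median log2 difference of the 10 genes was 0.12, against 0.0023 over all genes.

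Abi3, the WAVE subunit of microglia, ranged from 1.14 to 2.85 CPM in non-amyloid WT, with a median of 2.38, and from 3.74 to 9.05 CPM in amyloid WT, with a median of 5.46. All 10 amyloid WT libraries lay above all 10 non-amyloid WT libraries. The log2 difference was 1.402 ± 0.201 (SE, 95% interval 0.99 to 1.81, adjusted p = 1.0e-06), and without replicate 19 in the fit its adjusted p was 9.3e-09. Clu, the secreted chaperone, ranged from 498.9 to 766.9 CPM in non-amyloid WT, with a median of 600.8, and from 637 to 1095 CPM in amyloid WT, with a median of 803. The groups overlapped: 6 of 10 amyloid WT libraries were above every non-amyloid WT library, and 10 of 10 were above that group's median. The log2 difference of Clu was 0.44 ± 0.0796 (SE, 95% interval 0.28 to 0.60, adjusted p = 6.2e-05).

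Sorl1, the sorting receptor, ranged from 419.4 to 493.6 CPM in non-amyloid WT, with a median of 446, and from 448.6 to 610.5 CPM in amyloid WT, with a median of 499. Every amyloid WT library was above the non-amyloid WT median and 5 of 10 were above the whole group. Its log2 difference of 0.18 ± 0.0561 (SE) had an adjusted p of 0.0329 and stayed under the fold threshold. Abca7, the phospholipid transporter, had medians of 15.2 CPM in non-amyloid WT and 17.4 CPM in amyloid WT, with ranges of 9.97 to 19.96 and 12.2 to 26.9 that overlapped, and 3 of 10 amyloid WT libraries were above all of the other group. Its log2 difference was 0.27 ± 0.125 (SE) with an unadjusted p of 0.0373 and an adjusted p of 0.199. The remaining 6 genes had log2 differences from -0.13 (Cass4) to 0.14 (Bin1) and did not pass the test.

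The same comparison in Hom mice asks for the cohort difference when both Trem2 copies carry the variant. Abi3 was again higher in the amyloid mice, and Clu was higher by less and missed the test. edgeR called 1 of the 10 genes, Abi3, while 6.56% of all genes were called, and without replicate 19 it again called 1 gene, with 4.55% of all genes called. At an unadjusted p under 0.05 the count was 6 of 10 beside 22.6% of all genes, and 5 of 10 beside 18.7% without replicate 19. The median log2 difference of the 10 genes was 0.14, and 0.09 without replicate 19, against 0.027 and 0.018 over all genes.

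Abi3 ranged from 1.60 to 3.52 CPM in non-amyloid Hom, with a median of 2.68, and from 2.66 to 11.5 CPM in amyloid Hom, with a median of 3.84. Replicate 19 was the library at 11.5 CPM, and the highest of the other 9 was 5.32 CPM. With it 8 of 10, and without it 7 of 9, amyloid Hom libraries were above every non-amyloid Hom library. The log2 difference was 0.87 ± 0.200 (SE, adjusted p = 0.0031), and without replicate 19 it was 0.62 ± 0.164 (SE, adjusted p = 0.0148). Clu ranged from 475 to 671.1 CPM in non-amyloid Hom, with a median of 608.6, and from 599.8 to 767.7 CPM in amyloid Hom, with a median of 697.5. Here 7 of 10 amyloid Hom libraries were above all non-amyloid Hom libraries.

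The log2 difference of Clu in Hom mice was 0.23 ± 0.0795 (SE, adjusted p = 0.0614), and without replicate 19 it was 0.26 with an adjusted p of 0.0543, so edgeR did not call it. Without non-amyloid Hom replicate 11 its adjusted p was 0.049 and Clu was called, which made 2 of 10 genes. Ptk2b ranged from 471.5 to 571.8 CPM in non-amyloid Hom, with a median of 511.4, and from 395.1 to 532.6 CPM in amyloid Hom, with a median of 465.3. Of the amyloid Hom libraries 6 of 10 were below every non-amyloid Hom library. Its log2 difference was -0.15 ± 0.0549 (SE, unadjusted p = 0.0113, adjusted p = 0.0982). Picalm at 0.17, Cd2ap at 0.18 and Fermt2 at 0.12 had unadjusted p of 0.0328, 0.0453 and 0.0276 and missed the adjusted threshold, and Cd2ap had an unadjusted p of 0.097 without replicate 19.

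**Figure D2:**
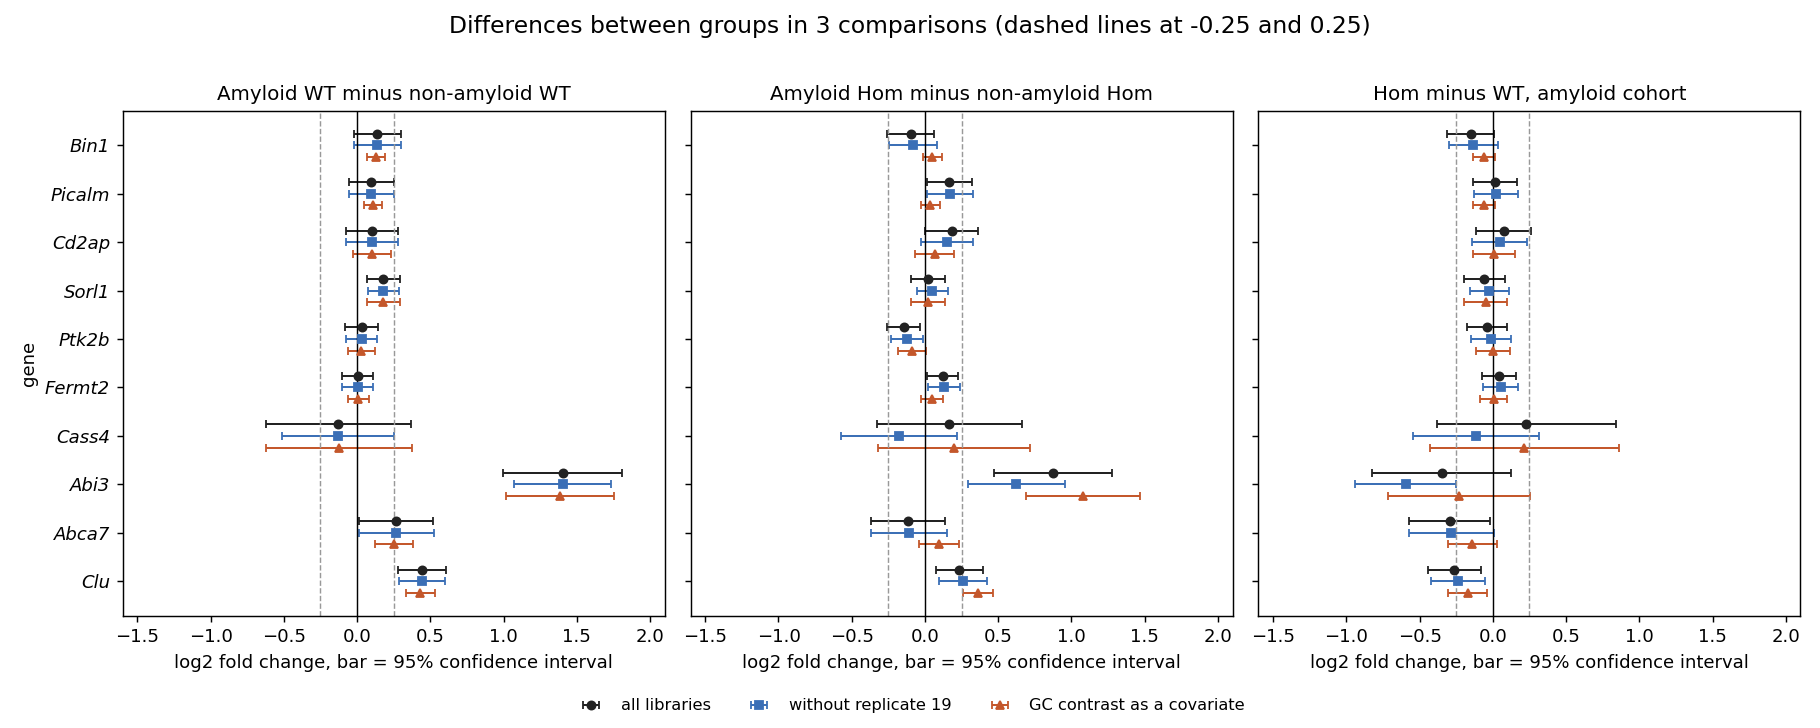
Log2 differences of the 10 genes with 95% intervals between cohorts in WT and in Hom mice and between genotypes in the amyloid cohort. Each is shown with all libraries, without replicate 19, and with the GC contrast (defined below) as a covariate, a setting chosen after seeing the data. Abi3 and Clu have intervals above 0 in both cohort comparisons.

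The genotype comparison in the amyloid cohort asks what the Trem2 variant does to cortex that bears 5xFAD. None of the 10 genes passed the test, though Clu, Abca7 and Abi3 lay lower in Hom than in WT mice with and without replicate 19. edgeR called 0 of 10 genes with 0.0753% of all genes called (16 genes), and 0 of 10 with 0.0706% called (15 genes) when replicate 19 was left out. At an unadjusted p under 0.05 there were 2 of 10 genes beside 9.67% of all genes, Clu and Abca7, and without that library 2 of 10 beside 7.82%, Abi3 and Clu, while Abca7 was at 0.0522. DESeq2 and limma-voom also called 0 of 10. The median log2 difference of the 10 genes was -0.05, and -0.07 without replicate 19, against 0.0014 and 0.00084 over all genes. For this genotype effect in the amyloid cohort DESeq2 called 298 of all genes and edgeR with sex as a covariate 251, each with 0 of the 10. The number of all genes called moved from 6 without amyloid WT replicate 12 to 204 without amyloid WT replicate 13, while the number among the 10 genes was 0 with any single library left out.

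Clu ranged from 599.8 to 767.7 CPM in amyloid Hom and from 637 to 1095 CPM in amyloid WT, with medians of 697.5 and 803. The groups overlapped, but 0 of 10 amyloid Hom libraries were above the amyloid WT median. Its log2 difference was -0.26 ± 0.0864 (SE, 95% interval -0.44 to -0.081, unadjusted p = 0.0060, adjusted p = 0.207), and without replicate 19 it was -0.24 with an adjusted p of 0.393. Abca7 ranged from 10.6 to 18.7 CPM in amyloid Hom, with a median of 15.0, and from 12.2 to 26.9 CPM in amyloid WT, with a median of 17.4. Only 1 of 10 amyloid Hom libraries was above the amyloid WT median. Its log2 difference was -0.30 ± 0.131 (SE, unadjusted p = 0.0346, adjusted p = 0.453).

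Abi3 gave different values with and without replicate 19. It ranged from 2.66 to 11.5 CPM in amyloid Hom and from 3.74 to 9.05 CPM in amyloid WT. In amyloid Hom 5 of 10 libraries were below every amyloid WT library and 1, replicate 19, was above every one. The log2 difference was -0.35 ± 0.225 (SE, unadjusted p = 0.136, adjusted p = 0.626) with all libraries. Without replicate 19 it was -0.60 ± 0.164 (SE, unadjusted p = 0.0015, adjusted p = 0.146), and 0 of 9 amyloid Hom libraries were above the amyloid WT median. Cass4, the focal adhesion scaffold, had a log2 difference of 0.23 with replicate 19, where it stood at 1.455 CPM, and -0.12 without it. Bin1 had a log2 difference of -0.15 (unadjusted p = 0.0602), and the other 5 genes lay between -0.059 (Sorl1) and 0.073 (Cd2ap).

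Trem2 itself, the edited gene, averaged 62.2 ± 24.4 CPM (SD, n = 10) in amyloid WT and 33.9 ± 10.3 CPM in amyloid Hom. Its log2 difference between these groups was -0.87 ± 0.209 (SE, unadjusted p = 0.00037, adjusted p = 0.0763). In the non-amyloid groups it averaged 10.7 ± 2.13 and 10.4 ± 1.59 CPM.

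The genotype comparison in the non-amyloid cohort asks what the variant does to younger cortex without the transgenes. None of the 10 genes passed the test, and the lowest unadjusted p belonged to the kinase Ptk2b and the receptor Sorl1, both slightly higher in Hom mice. edgeR called 0 of 10 genes with 0.0329% of all genes called (7 genes), 2 of 10 had an unadjusted p under 0.05 beside 4.61% of all genes, and DESeq2 and limma-voom called 0 of 10. Ptk2b ranged from 414.3 to 519.2 CPM in non-amyloid WT, with a median of 467.9, and from 471.5 to 571.8 CPM in non-amyloid Hom, with a median of 511.4. All 10 Hom libraries were above the WT median and 4 were above every WT library. The log2 difference of Ptk2b was 0.14 ± 0.0482 (SE, unadjusted p = 0.0085, adjusted p = 0.965). Sorl1 had medians of 446 CPM in WT and 480.7 CPM in Hom, 9 of 10 Hom libraries were above the WT median, and its log2 difference was 0.10 ± 0.0429 (SE, unadjusted p = 0.0235, adjusted p = 0.965).

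The interaction asks whether the genotype difference itself differs between the cohorts. edgeR called 0 of 10 genes and 0% of all genes, with 3 of 10 members and 2189 genes at an unadjusted p under 0.05, and DESeq2 called 18 genes and limma-voom 0, with 0 of 10 members by either. Ptk2b at -0.18 (unadjusted p = 0.0279), Abca7 at -0.39 (0.0344) and Bin1 at -0.24 (0.0396) were the 3 members, and every member's adjusted p was at least 0.448. For Abi3 the interaction was -0.53 ± 0.281 (SE, unadjusted p = 0.0664), and without replicate 19 it was -0.78 ± 0.229 (SE, unadjusted p = 0.0015, adjusted p = 0.288). For Clu it was -0.21 ± 0.112 (SE, unadjusted p = 0.0702, adjusted p = 0.509). The cohort differences of Abi3 and Clu in WT and in Hom mice are therefore not shown to differ.

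Sex was compared within each cohort with genotype held. edgeR called 0 of 10 genes in the amyloid cohort, where 0.24% of all genes were called (0.419% without replicate 19, again with 0 of 10), and 0 of 10 in the non-amyloid cohort, where 0.122% were called. At an unadjusted p under 0.05 there were 1 and 0 of 10 genes beside 7.92% and 6.59% of all genes, and DESeq2 and limma-voom called 0 of 10 in both cohorts. The 1 gene was Abi3. In amyloid WT its 5 females were at 4.52, 5.07, 7.84, 8.61 and 9.05 CPM and its 5 males at 3.74, 4.32, 4.53, 5.84 and 5.97 CPM. The upper 3 females were above every male, and the lower 2 overlapped with them. In amyloid Hom the females were at 3.41, 3.98, 4.45, 4.60 and, in replicate 19, 11.5 CPM and the males at 2.66, 3.57, 3.62, 3.70 and 5.32 CPM, so that the highest male was above every female but replicate 19. Over both amyloid genotypes the female minus male log2 difference was 0.54 ± 0.198 (SE, unadjusted p = 0.0122, edgeR adjusted p = 0.391), and without replicate 19 it was 0.33 (unadjusted p = 0.0421, adjusted p = 0.671). Of the microglial markers edgeR there called 1 of 10 higher in females and gave 8 an unadjusted p under 0.05 beside the same 7.92% of all genes, while DESeq2 called 6 and limma-voom 3. Of the 8 markers of plaque-associated microglia edgeR called 0 with 7 at an unadjusted p under 0.05, DESeq2 2 and limma-voom 0. The part of these cells in the sex difference of Abi3 was not tested. The interaction of genotype and sex in the amyloid cohort had 0 of 10 genes and 0% of all genes called by edgeR, with 0 members and 1124 genes at an unadjusted p under 0.05, and DESeq2 and limma-voom called 0 of 10.

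Among libraries of the same group, 8 of the 10 genes moved along a measure of base composition. This GC contrast was examined after the correlations among the 10 genes had been seen. For each library it is the mean log2 CPM of the 10% of genes with the highest GC content of their longest transcript (1505 genes, at least 57.8%) minus that of the 10% with the lowest (1506 genes, at most 41.3%), with the 10 genes left out. It ran from -1.56 to -0.10 over the 40 libraries. Its mean was -0.72 ± 0.434 (SD, n = 10) in non-amyloid WT, -0.57 ± 0.370 in non-amyloid Hom, -0.71 ± 0.428 in amyloid WT and -0.89 ± 0.293 in amyloid Hom, and these spreads overlapped.

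After the means of the 8 groups of cohort, genotype and sex were removed, log2 CPM of 8 of the 10 genes was related to the GC contrast over 40 libraries at an adjusted p under 0.05, by Pearson's r and by Spearman's rho. The family held 10 relations, each with a two-sided permutation test whose smallest possible p is 1.0e-05. Here and in the relations below, values were shuffled over all 40 libraries without regard to group. The shuffles did not allow for the degrees of freedom used by what was removed, so these p can be too low. Bin1, whose longest transcript has 55.3% GC, had r = 0.93 and rho = 0.90 (both permutation p = 1.0e-05, adjusted 1.7e-05). Without the 2 libraries farthest from the median its r was 0.90, and within the 4 groups r ran from 0.82 to 0.98. Picalm, at 42.1% GC, had r = -0.93 and rho = -0.87 (both permutation p = 1.0e-05, adjusted 1.7e-05), with -0.89 without the 2 farthest libraries and -0.98 to -0.89 within groups. So these 2 endocytic genes ran in opposite directions across mice of the same group.

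Abca7 at 58.9% GC had r = 0.87 and rho = 0.84, Clu at 55.6% had r = 0.83 and rho = 0.71, Fermt2 at 45.9% had r = -0.80 and rho = -0.81, and Cd2ap at 38.4% had r = -0.72 and rho = -0.65. For these 4 genes each permutation p was 1.0e-05 and each adjusted value 1.7e-05, and r without the 2 farthest libraries was 0.82, 0.75, -0.80 and -0.61. Abi3 at 59.7% GC had r = 0.60 (permutation p = 4.0e-05, adjusted 5.7e-05) and rho = 0.57, and Ptk2b at 54.2% had r = 0.57 (permutation p = 9.0e-05, adjusted 0.00011) and rho = 0.51. Sorl1 at 50.7% (r = -0.05, rho = -0.10, permutation p = 0.74 and 0.55) and Cass4 at 53.6% (r = 0.16, rho = 0.26, permutation p = 0.32 and 0.10) showed no such relation. All 8 related genes kept the sign of r in each of the 4 groups. In amyloid Hom r was weak for Cd2ap at -0.24, Abi3 at 0.25, Clu at 0.33 and Ptk2b at 0.37. In the other groups their r ran from -0.85 to -0.69, 0.65 to 0.90, 0.89 to 0.93 and 0.39 to 0.85 in that order. Such relations were common: of the other 15189 genes with a mean of at least 1 CPM, 47.8% had an absolute r of at least 0.57, the smallest among the 8, and of the 12043 whose GC content lies between those of the high and low groups 40.2% did. The median absolute r was 0.76 for the 10 genes, 0.55 for all others and 0.48 for those between. What sets the GC contrast of a library was not tested.

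With the GC contrast as a covariate, added after the data were seen, edgeR called 3 of 10 genes between the cohorts in WT mice, where 9.58% of all genes were called. These were Abi3 at 1.38 (adjusted p = 1.6e-07), Clu at 0.43 (adjusted p = 5.0e-09) and Abca7 at 0.25 ± 0.0639 (SE, adjusted p = 0.0042). Sorl1 at 0.18 (adjusted p = 0.0197), Bin1 at 0.13 (adjusted p = 0.0028) and Picalm at 0.11 (adjusted p = 0.0121) stayed under the fold threshold. At an unadjusted p under 0.05 there were 6 of 10 genes in WT mice beside 28.4% of all genes. In Hom mice it called 2 of 10, with 5.91% of all genes called: Abi3 at 1.08 (adjusted p = 0.00014) and Clu at 0.36 ± 0.0510 (SE, adjusted p = 2.8e-06). These were also the only 2 at an unadjusted p under 0.05, beside 20.8% of all genes, where 6 had been without the covariate. Ptk2b was then at -0.089 (unadjusted p = 0.0621), Picalm at 0.036, Cd2ap at 0.067 and Fermt2 at 0.049. Without replicate 19 as well, 2 of 10 genes and 4.83% of all genes were called in Hom mice, with Abi3 at 0.83 (adjusted p = 3.4e-05) and Clu at 0.38 (adjusted p = 1.2e-06). It called 0 of 10 genes between the genotypes in the amyloid cohort (0.0376% of all genes, and 0.0659% without replicate 19 with 0 of 10), 0 of 10 in the non-amyloid cohort (0.0518%) and 0 of 10 for the interaction (0%), with 1, 3 and 0 of 10 at an unadjusted p under 0.05 beside 7.69%, 8.49% and 8.20% of all genes. There the difference of Abca7 in the amyloid cohort was -0.14 in place of -0.30, that of Clu -0.17 in place of -0.26 and that of Abi3 -0.23 in place of -0.35. The interaction of Abi3 was -0.31 in place of -0.53. In both comparisons Abi3 was the lowest of the 10 genes with all libraries. Without replicate 19 as well, the lowest of the 10 values was -0.47 in the amyloid cohort and -0.55 for the interaction. Then 2 and 1 of 10 genes had an unadjusted p under 0.05, beside 7.41% and 7.09% of all genes.

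Among themselves, 27 of the 45 pairs of these genes were correlated over the 40 libraries at an adjusted p under 0.05 once the 8 group means were removed, 13 positively and 14 negatively. By Spearman's rho there were 27, without replicate 19 there were 26, and 22 of the 27 kept 1 sign in all 4 groups. Over all 115345266 pairs of the other 15189 genes, 37.7% had an absolute r of at least 0.37, the smallest among the 27, and the median absolute r was 0.46 for the member pairs against 0.28 over all. Bin1 and Abca7 had r = 0.87 and rho = 0.87 (permutation p = 1.0e-05 for each, adjusted 4.1e-05 and 4.5e-05), with 0.87 without the 2 farthest libraries and 0.80 to 0.94 within groups. Bin1 and Picalm, the membrane bender and the clathrin adaptor, had r = -0.79 and rho = -0.69 (permutation p = 1.0e-05 for each, adjusted 4.1e-05 and 4.5e-05), with -0.70 without the 2 farthest libraries and -0.90 to -0.57 within groups. Cass4 and Abi3 had r = 0.37 (permutation p = 0.019, adjusted 0.031, rho = 0.19, permutation p = 0.23) with replicate 19 and 0.07 (adjusted p = 0.73) without it, so that relation rested on 1 library. Along the GC contrast Bin1, Abca7, Clu, Abi3 and Ptk2b went one way and Picalm, Fermt2 and Cd2ap the other, but not every pair followed this: Ptk2b and Abi3 had r = 0.07 (adjusted 0.68) and Cd2ap and Abi3 r = -0.19 (adjusted 0.31).

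With the GC contrast removed as well, 12 of 45 pairs were correlated, 7 positively and 5 negatively, with 8 by Spearman's rho and 16 without replicate 19. Of all other pairs 10.5% then had an absolute r of at least 0.41, the smallest among the 12, and the median absolute r was 0.30 for the member pairs against 0.17 over all. Bin1 and Picalm then had r = 0.53 (permutation p = 0.00035, adjusted 0.0052) and rho = 0.68 (permutation p = 1.0e-05, adjusted 0.00045), with 0.53 without the 2 farthest libraries and 0.24 to 0.93 within groups. Picalm and Abca7 went from r = -0.70 (rho = -0.64) to r = 0.60 (rho = 0.58, permutation p = 9.0e-05, adjusted 0.0020), with 0.54 without the 2 farthest libraries and 0.50 to 0.70 within groups. The sign of both relations therefore turned with the GC contrast held.

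**Figure D3:**
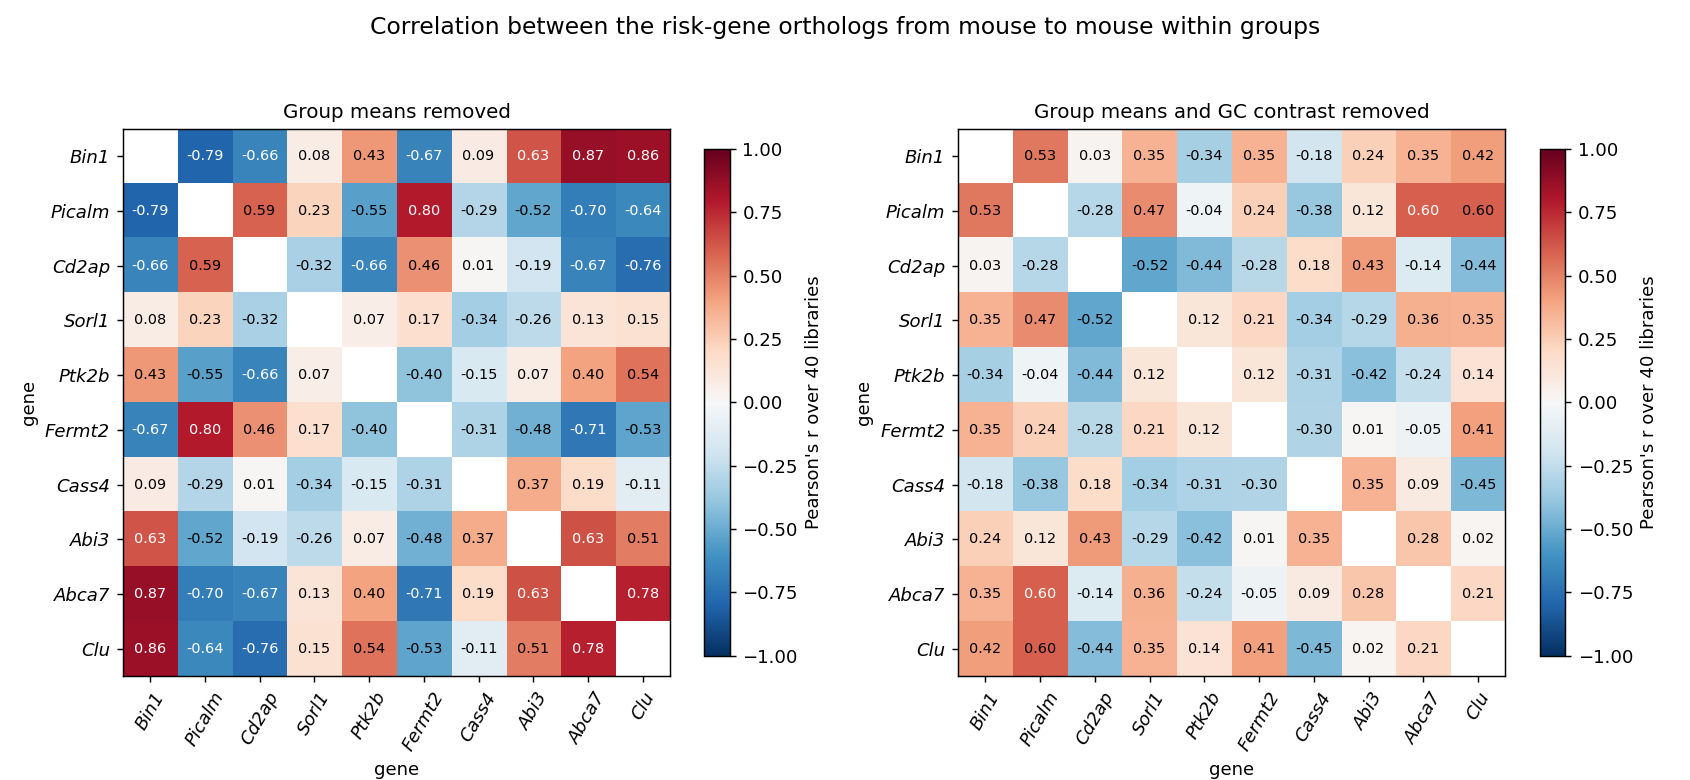
Pearson's r of each pair among the 10 genes over 40 libraries after group means were removed, before and after the GC contrast was removed. Bin1 and Picalm go from -0.79 to 0.53.

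Marker genes of 10 cell types were summed in each library and set beside these genes, since in bulk tissue fewer cells of a type and less RNA per cell cannot be told apart. For the marker counts below, edgeR called 7.95% of all genes between cohorts in WT mice and 6.56% in Hom mice (4.55% without replicate 19). At an unadjusted p under 0.05 these shares were 20.9% and 22.6% with all libraries. Between the genotypes in the amyloid cohort 0.0753% were called and 9.67% had such a p. Of the 10 microglial markers, edgeR called all 10 higher in amyloid WT than in non-amyloid WT, 8 of 10 in the Hom comparison (7 without replicate 19) and 0 between the genotypes in the amyloid cohort, where 9 of 10 had an unadjusted p under 0.05, DESeq2 called 7 and limma-voom 0. Their summed level was 422 ± 34.96 CPM (SD, n = 10) in non-amyloid WT, 419 ± 18.6 in non-amyloid Hom, 1044 ± 246.6 in amyloid WT and 719 ± 134.3 in amyloid Hom. The 8 markers of plaque-associated microglia, of which Lpl was the most abundant at 56.8 CPM, summed to 118 ± 9.43, 113 ± 11.7, 377 ± 133.5 and 216 ± 46.7 CPM in the same order. Of these 8 were called higher in WT mice, 6 in Hom mice, and 1, Gpnmb at -1.61 (adjusted p = 0.0330), was called lower in amyloid Hom than in amyloid WT by edgeR. In that genotype comparison all 8 had an unadjusted p under 0.05, and DESeq2 called 5 and limma-voom 0. Here and below, the marker genes other than the most abundant were named after their values were seen. Abi3 averaged 2.25, 2.55, 5.95 and 4.69 CPM in the same groups, and 3.93 CPM in amyloid Hom without replicate 19. The part of these markers in the differences of Abi3 was not tested.

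The 9 astrocyte markers, led by Slc1a2, summed to 5175 ± 476.8, 5098 ± 246.9, 6556 ± 468.2 and 6187 ± 533.6 CPM, with 3 of 9 (Gfap, Aqp4 and Aldoc) called higher in WT mice by edgeR and 2 of 9 (Gfap and Aqp4) in Hom mice, while DESeq2 and limma-voom called 2 in each. The part of these markers in the Clu difference was not tested. The 9 neuronal markers, led by Snap25, summed to 12163 ± 552.5, 12375 ± 603.5, 11999 ± 662.7 and 12231 ± 636.6 CPM. edgeR called 0 of these 9 in either cohort comparison, with unadjusted p under 0.05 for 1 in WT and 3 in Hom mice, while DESeq2 called 0 and limma-voom 0 and 1. The 9 oligodendrocyte markers summed to 4724, 4508, 4837 and 4984 CPM, with 0 called in WT mice by edgeR, DESeq2 or limma-voom (0 at an unadjusted p under 0.05) and 2, Mobp and Ermn, in Hom mice (Mobp alone without replicate 19). Precursors of oligodendrocytes (5 markers, led by Pdgfra) summed to 159, 158, 175 and 169.5 CPM, endothelial cells (7, led by Flt1) to 239, 247, 231 and 233 CPM with Cldn5 called up and Itm2a down in WT mice, and pericytes and fibroblasts (7, led by Rgs5) to 159.7, 157, 161 and 158 CPM. Choroid plexus (5, led by Ttr) summed to 31.7 ± 56.9, 82.6 ± 154, 90.6 ± 148.3 and 225 ± 279.6 CPM, a spread larger than the means in all 4 groups, and erythroid cells (5, led by Hbb-bs) to 9.999, 10.6, 12.4 and 12.9 CPM. No marker of any list was at 0 in all 40 libraries, and 3 of 5 choroid plexus markers were above 0 in every one.

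Within groups, 24 of the 100 relations between the 10 genes and the 10 marker sums had an adjusted p under 0.05, 9 positive and 15 negative (22 by Spearman's rho, 24 without replicate 19), and 18 of the 24 kept 1 sign in all 4 groups. Of the same relations for the other 15189 genes, 15.0% had an absolute r of at least 0.39, the smallest among the 24, and the median absolute r was 0.22 for the 10 genes against 0.18 over all others. Picalm and the astrocyte sum had r = 0.70 and rho = 0.70 (permutation p = 1.0e-05 for each, the smallest possible, adjusted 0.0010), with 0.69 without the 2 farthest libraries and 0.54 to 0.85 within groups. With the GC contrast removed, to which both are related, their r was 0.48 (adjusted 0.021) and rho 0.44 (adjusted 0.059), with 0.40 without the 2 farthest libraries and -0.31 to 0.94 within groups. Abi3 and the neuronal sum had r = -0.65 (permutation p = 2.0e-05, adjusted 0.0010) and rho = -0.59 (permutation p = 0.00011, adjusted 0.0027), with -0.66 without the 2 farthest libraries and -0.91 to -0.43 within groups. Abi3 and the microglial sum had r = 0.27 (permutation p = 0.095, adjusted 0.23) and rho = 0.30 (permutation p = 0.058, adjusted 0.15), with 0.20 without the 2 farthest libraries and -0.23 to 0.62 within groups. Without replicate 19 that r was 0.44 with an adjusted p of 0.029, so whether it passed the test hung on that library.

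The sums of 4 of the 10 marker lists were themselves related to the GC contrast by Pearson's r and 3 by Spearman's rho, among them astrocytes (r = -0.60, rho = -0.58, -0.55 without the 2 farthest libraries, permutation p = 4.0e-05, adjusted 0.00040) and neurons (r = -0.52, rho = -0.53, -0.58 without the 2 farthest libraries, permutation p = 0.00053, adjusted 0.0026). With the GC contrast removed, 10 of 100 relations had an adjusted p under 0.05, 8 positive and 2 negative, and 5 by Spearman's rho, and of the same relations for all other genes 4.38% had an absolute r of at least 0.44, the smallest among the 10. Clu and the microglial sum then had r = 0.63 (permutation p = 2.0e-05, adjusted 0.0015) and rho = 0.56 (permutation p = 0.00025, adjusted 0.0083), with 0.59 without the 2 farthest libraries and 0.052 to 0.78 within groups, against r = 0.36 (adjusted 0.077) and rho = 0.43 (adjusted 0.033) before. Clu and the astrocyte sum had r = 0.59 and rho = 0.59 (permutation p = 1.0e-04 and 0.00015, adjusted 0.0033 and 0.0075), with 0.59 without the 2 farthest libraries and -0.087 to 0.80 within groups, against r = -0.23 (adjusted 0.31) before. Ptk2b and the neuronal sum had r = 0.61 and rho = 0.59 (permutation p = 3.0e-05 and 0.00012, adjusted 0.0015 and 0.0075), with 0.64 without the 2 farthest libraries and 0.14 to 0.89 within groups, against r = 0.13 (adjusted 0.60) before. By Pearson's r these relations thus passed the test over 40 libraries only with the GC contrast removed, and they were not seen in every group: Clu was at 0.052 with microglia in non-amyloid WT and at -0.087 with astrocytes in non-amyloid Hom, and Ptk2b with neurons was at 0.14 and 0.18 in the non-amyloid groups. Clu was not related to the sums of oligodendrocytes (r = 0.12, adjusted 0.63) or their precursors (r = 0.22, adjusted 0.33). Abi3 and the neuronal sum had r = -0.49 (adjusted 0.015), and -0.36 (adjusted 0.11) without replicate 19. Abi3 and the microglial sum had r = 0.33 and rho = 0.33 (permutation p = 0.041 and 0.037, adjusted 0.14 for each), with 0.28 without the 2 farthest libraries and -0.21 to 0.92 within groups, and r = 0.63 (adjusted p = 0.0010) without replicate 19. With the sum of plaque-associated microglia its r was 0.34 and rho 0.36 (permutation p = 0.034 and 0.022, adjusted 0.13 and 0.10), with 0.31 without the 2 farthest libraries, and r was 0.58 (adjusted p = 0.0032) without replicate 19.

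The 3 genes whose pattern over the 40 libraries was most like each member were sought among 15197 genes (15198 for Cass4) with a mean of at least 1 CPM, by Pearson's r after group means were removed. Bin1 was most like Srebf2 (r = 0.95), Apbb1 and Lypla2, and Picalm most like Yme1l1 (r = 0.96), C78339 and Sh3glb1. Cd2ap was most like Fam76b (r = 0.93), Mtx3 and Rbm26, and the nearest genes of Sorl1 included Synj2 (r = 0.74) and Clstn2. The nearest genes of Ptk2b included Slc25a23 (r = 0.86) and PCDHGC5, and Fermt2 most like Pik3ca (r = 0.87), Stk38l and Zfp68. Abca7 was most like E4f1 (r = 0.94), Capn15 and Git1, and Abi3 most like Tymp (r = 0.87), Igsf8 and Rrbp1. Of the 3 genes named for Abi3, 1 was the same by Spearman's rho, 0 without replicate 19 and 0 with the GC contrast removed. Cass4 was most like Sfi1 (r = 0.75), Pkd1l3 and Clcn1, with r of 0.56, 0.51 and 0.45 without replicate 19.

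Clu was most like Psap (r = 0.90), Smpd1 and Coasy, of which 0 were among its nearest 3 by Spearman's rho and 1 without replicate 19. With the GC contrast removed its nearest genes were Grn (r = 0.80), Ctsd (r = 0.76) and Tcn2 (r = 0.75), 3 other genes. The 30 genes found had rho from 0.51 to 0.96, r without the 2 farthest libraries from 0.35 to 0.95, and a permutation p of 1.0e-05, the smallest possible, or 2.0e-05 (Clcn1). These p are for genes picked as the nearest of all compared, and were not adjusted. Of these 30, 10 were the same by Spearman's rho, 14 without replicate 19 and 11 with the GC contrast removed.

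The relatives and partners of these genes were read from 6 lists fixed by name. Beside their counts, edgeR called 7.95% of all genes in WT mice and 6.56% in Hom mice, with 20.9% and 22.6% at an unadjusted p under 0.05. Of all genes, DESeq2 called 1851 and limma-voom 1734 for the cohort difference in WT mice, and 1275 and 1732 for the cohort difference in Hom mice. In WT mice DESeq2 called 4 of 21 paralogs, 2 of 29 clathrin, 5 of 19 WAVE and Rac, 4 of 23 focal adhesion and 9 of 33 other ortholog genes, and limma-voom 4, 2, 4, 4 and 9. In Hom mice DESeq2 called 3, 1, 4, 1 and 7, and limma-voom 3, 2, 4, 2 and 9. In WT mice the amyloid cohort was higher, by edgeR's call, for 4 of 21 tested paralogs of the 10 genes, among them Bin2 at 1.003 ± 0.123 (log2, SE, adjusted p = 3.2e-08), Fermt3 at 1.19 ± 0.167 (adjusted p = 6.1e-07) and Abca1 at 0.55 ± 0.0977 (adjusted p = 5.2e-05), with Sorcs3 at 0.41 named after its values were seen. Bin2 and Fermt3 are the relatives of Bin1 and Fermt2 found in blood and microglial cells, and their log2 differences stand beside 0.14 for Bin1 and 0.0042 for Fermt2, which was -0.015 with DESeq2. Abca1, the cholesterol exporter, stands beside 0.27 for Abca7. In Hom mice 3 of 21 were called, and 2 without replicate 19, when Bin2 went from 0.38 with an adjusted p of 0.0485 to 0.37 with an adjusted p of 0.0848.

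Of the WAVE complex and Rac list, which holds the partners of Abi3, 5 of 19 genes were called higher in WT mice and 4 of 19 in Hom mice. Dock2, an activator of Rac in immune cells, was at 1.51 ± 0.124 (SE, adjusted p = 1.4e-12) and 0.99 ± 0.124 (adjusted p = 1.9e-07). Nckap1l, the blood cell subunit of the WAVE complex, was at 1.12 and 0.67, and Rac2 at 1.34 and 0.67. The others called, named after their values were seen, were Arpc1b at 1.11 and 0.59 and, in WT mice, Wasf2 at 0.28. Dock2 was also called higher in females of the amyloid cohort, at 0.50 ± 0.104 (SE, adjusted p = 0.0430). Of the focal adhesion list, which holds partners of Ptk2b, Fermt2 and Cass4, 4 of 23 were called higher in WT mice, among them Parvg at 1.15, Tln1 at 0.41 and Parvb at 0.45, with Vasp at 0.41 named after its values were seen, and 1 of 23, Parvg at 0.48, in Hom mice.

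Of the clathrin endocytosis list, the partners of Picalm, Bin1 and Cd2ap, 3 of 29 were called higher in WT mice: the Rab5 activator Rin3 at 1.18, the cargo adaptor Dab2 at 0.37 and the dynamin Dnm2 at 0.26. In Hom mice Dab2 at 0.28 was called (adjusted p = 0.0486), and 0 of 29 without replicate 19, with 6 of 29 at an unadjusted p under 0.05 and 1 and 2 called by DESeq2 and limma-voom on all libraries. Of the retromer and sorting nexins that work with Sorl1, 0 of 15 tested were called by edgeR, DESeq2 or limma-voom in either cohort comparison, with unadjusted p under 0.05 for 1 in WT and 5 in Hom mice, and Vps29 at -0.16 the lowest p in WT mice (unadjusted p = 0.0048, adjusted p = 0.0501). Of 33 other orthologs of Alzheimer risk genes, 9 were called higher in WT mice and 8 in Hom mice (7 without replicate 19), among them Ctsh at 1.42 and 0.93, Inpp5d at 1.04 and 0.48 and Grn at 1.22 in WT mice. The 6 lists had median log2 differences in WT mice of 0.10 (paralogs), 0.041 (clathrin), 0.029 (retromer), 0.042 (WAVE and Rac), 0.071 (focal adhesion) and 0.058 (other orthologs), against 0.0023 over all genes. In Hom mice the medians in the same order were 0.0028, -0.023, 0.028, 0.036, 0.025 and 0.15, against 0.027 over all genes.

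Between the genotypes edgeR and limma-voom called 0 genes of each of the 6 lists in either cohort and 0 for the interaction. In the amyloid cohort DESeq2 called 1 paralog, 0 clathrin, 0 retromer, 4 WAVE and Rac, 1 focal adhesion and 5 other ortholog genes, with 2, 4, 0, 6, 4 and 10 at an unadjusted p under 0.05 by edgeR. For that genotype effect in the amyloid cohort DESeq2 called 298 of all 21253 genes, and 9.67% had an unadjusted p under 0.05 by edgeR. In the non-amyloid cohort DESeq2 called 0 of each, with 3, 1, 3, 3, 1 and 2 at an unadjusted p under 0.05 beside 4.61% of all genes, and for the interaction it called 2 other orthologs, with 3, 5, 2, 6, 4 and 10 beside 10.3% of all genes. By edgeR the lowest p of each list in the amyloid cohort belonged to Bin2 at -0.57 ± 0.135 (SE, adjusted p = 0.0744), Rin3 at -0.84 (adjusted p = 0.152), Vps29 at 0.084 (adjusted p = 0.655), Dock2 at -0.58 (adjusted p = 0.0824), Parvg at -0.67 (adjusted p = 0.0747) and Inpp5d at -0.49 (adjusted p = 0.0554). The medians of the lists there were -0.12 (paralogs), -0.042 (clathrin), 0.024 (retromer), -0.062 (WAVE and Rac), -0.036 (focal adhesion) and 0.0020 (other orthologs), against 0.0014 over all genes. The genes on the opposite strand of Abi3, named after their values were seen, differed from each other: in WT mice between cohorts Zfp652 was at -0.05 (adjusted p = 0.717), Phospho1 at 0.16 and Gngt2 at 1.34 (adjusted p = 2.5e-10). Gngt2 was at 0.64 (adjusted p = 0.0011) in Hom mice, and Zfp652 at -0.17 there was under the fold threshold (adjusted p = 0.0422).

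Promoters are shown for 4 of the members whose levels moved along the GC contrast, since base composition was the measure that divided these genes. The promoter table used here, from RefSeq on GRCm38.p6, held 6 of the 10 genes, each as the 250 bases before the transcript start. The motifs searched on both strands, with the share of 32851 promoters of that length that hold each, were GAGGAAGT (2.44%), GAGGAA (23.3%), CACGTG (6.02%), TGANTCA (6.75%) and GGGCGG (32.7%). Capitals mark every match, and a match on the other strand appears as its reverse complement. Picalm, chr7:90129963-90130212 on the plus strand, is 79.2% GC and holds 6 matches of GGGCGG, 1 of CACGTG and 2 of GAGGAA, of which 1 directly follows a GGGCGG and shares no base with it. Fermt2, chr14:45530066-45530315 on the minus strand, is 76.0% GC with 5 of GGGCGG. Cd2ap, chr17:42876425-42876674 on the minus strand, is 76.4% GC with no match. Abca7, chr10:79996244-79996493 on the plus strand, is 58.8% GC with 1 of GGGCGG, and the median promoter is 52.4% GC. So the 3 genes whose transcripts are low in GC had promoters higher in GC than that of Abca7, whose transcript is high in GC. Bin1, Clu, Abi3 and Ptk2b, which also rose with the GC contrast, had no promoter in that table. The high side therefore rests on Abca7 alone.
Picalm: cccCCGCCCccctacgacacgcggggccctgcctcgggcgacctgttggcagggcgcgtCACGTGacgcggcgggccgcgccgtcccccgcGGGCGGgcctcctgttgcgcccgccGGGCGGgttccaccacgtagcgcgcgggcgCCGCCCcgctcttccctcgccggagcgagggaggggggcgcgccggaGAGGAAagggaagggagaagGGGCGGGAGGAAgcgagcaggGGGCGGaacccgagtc
Fermt2: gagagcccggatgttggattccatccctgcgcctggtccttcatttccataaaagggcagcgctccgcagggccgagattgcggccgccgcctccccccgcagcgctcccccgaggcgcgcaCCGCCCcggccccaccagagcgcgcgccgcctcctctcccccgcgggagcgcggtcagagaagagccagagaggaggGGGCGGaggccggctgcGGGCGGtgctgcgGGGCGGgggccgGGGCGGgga
Cd2ap: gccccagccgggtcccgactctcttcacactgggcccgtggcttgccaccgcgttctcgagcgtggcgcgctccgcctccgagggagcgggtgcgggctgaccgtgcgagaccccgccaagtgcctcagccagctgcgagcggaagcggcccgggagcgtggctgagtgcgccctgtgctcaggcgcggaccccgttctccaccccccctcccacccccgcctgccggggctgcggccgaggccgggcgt
Abca7: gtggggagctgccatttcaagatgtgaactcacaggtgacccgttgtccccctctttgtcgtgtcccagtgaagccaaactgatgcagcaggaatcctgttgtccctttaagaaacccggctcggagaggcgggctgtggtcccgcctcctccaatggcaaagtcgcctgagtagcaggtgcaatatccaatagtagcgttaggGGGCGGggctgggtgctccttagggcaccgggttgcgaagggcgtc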

How the data were processed

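Poly-A RNA of 40 mouse cortices was sequenced, and the authors deposited raw counts per gene, an integer table in the unit of read counts. The submitters' notes name STAR 2.5.2b, featureCounts 1.5.1 and mm10, while the study's methods name other aligners, and the strand setting is given in neither. Groups came from the labels, and all 40 libraries were kept. The study left out 1 amyloid Hom female for a low share of reads counted to genes and for its strand check, and does not name it. Replicate 19, an amyloid Hom female with the lowest total and a raised share of counts on genes under opposite-strand exons, may be that library, which the sources do not settle. Here each library was left out in turn from the comparisons that its own group enters, so that in the cohort comparisons, fitted on 40 libraries, the groups not compared stayed whole but for replicate 19.

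edgeR 4.0.16 in R 4.3.3 was run with TMM scaling and the quasi-likelihood test (two-sided) after the filter of 10 counts in 4 libraries, with p adjusted over all genes tested. Genotype and sex comparisons used the 20 libraries of a cohort, and cohort comparisons and the interaction used all 40. Other settings were DESeq2 1.42.0, limma-voom 3.58.1 with sample quality weights, no filter, scaling by upper quartile or by library size alone, sex as a covariate, other sets of libraries in the fit and other fold thresholds. Sex together with leaving out replicate 19, and the GC contrast as a covariate, were chosen after seeing the data. Correlations used log2 CPM with a prior count of 2, 100000 permutations, and SciPy 1.17.1, NumPy 2.4.6 and pandas 2.3.3 in Python 3.11.15. The pipeline was tested on simulated data. No paired analysis was possible because the replicate numbers do not join a mouse of 1 group to a mouse of another.

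The members and lists were chosen with earlier results of these data known. Named genes are the 10 members, the 3 genes most like each, and in each list up to 3 called genes with the lowest p, or the lowest p where none was called, with the most abundant marker of each cell type. Trem2, Thy1, Xist and Ddx3y were used for the labels. Not every gene that the rule takes is named. Other genes are said to be chosen after their values were seen.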

Additional observations from a re-analysis of the deposited data

Results flagged for a closer look

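Of the 40 groups of values examined (10 genes in 4 groups of 10 libraries), 2 held a library whose gap to its nearest neighbour, divided by the range of the group, was over Dixon's critical value for 10 values, and chance alone would mark about 1 in 20 groups. Both were amyloid Hom replicate 19. Abi3 was 11.55 CPM there, against 5.32 CPM for the next library of its group. Cass4 was 1.455 CPM there, against 0.512 CPM for the next. The same library had the raised share of counts on genes under a gene at least 10 times as abundant on the opposite strand. Abi3 and Cass4 have 75.8% and 21.2% of their exonic bases under exons of opposite-strand genes of any abundance, more than the other 8 genes. Abi3 meets that rule under Zfp652, which covers 70.1% of its exonic bases at a median of 70.8 CPM against 3.22 CPM. Abi3 is therefore among those 139 genes. For Cass4 the opposite-strand gene has a median of 1.185 CPM against 0.387 CPM for Cass4, so Cass4 falls short of that rule. These medians are CPM scaled by library total alone. The part of this overlap in the values was not tested.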

How the results depend on the processing

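Under the other settings, 446 of 476 values of single genes kept their direction and their side of the threshold, 25 changed sign and 5 became called. With 1 library left out, 25 of 1230 values changed sign and 1 changed its call. The number of these genes called was 0 for genotype, sex and both interactions under every setting and with every library left out.

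The settings moved the number of all genes called as follows, and the cause was not tested. For the genotype effect in the amyloid cohort 16 became 298 with DESeq2, 25 with limma-voom, 8 with no filter, 251 with sex as a covariate, 200 with sex and without replicate 19, 612 with 1 fit of all 40 libraries and 8 with the GC contrast. For the genotype effect in the non-amyloid cohort 7 became 11 with DESeq2 and 11 with the GC contrast. For the interaction of genotype and cohort 0 became 18 with DESeq2, 12 with sex and 6 with sex and without replicate 19. For the sex difference in the amyloid cohort 51 became 251 with DESeq2, 113 with limma-voom, 26 with no filter, 241 with 1 fit and 89 without replicate 19, and for the sex difference in the non-amyloid cohort 26 became 45 with DESeq2. Of these 10 genes, those called between cohorts in Hom mice went from 1 to 2 with sex and without replicate 19, 2 with the GC contrast and 2 with both the contrast and without replicate 19. Relations to marker sums went from 24 to 10 with the GC contrast removed. The 30 most similar names became 10 by Spearman's rho, 14 without replicate 19 and 11 with the GC contrast removed.

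With each library of the groups compared left out in turn (for cohort in WT mice also replicate 19, and not the other libraries of the fit), these counts ran from 6 to 204 (genotype, amyloid), 4 to 8 (genotype, non-amyloid), 0 to 22 (genotype and cohort), 1424 to 1805 (cohort, WT), 967 to 1639 (cohort, Hom), 19 to 116 (sex, amyloid), 18 to 24 (sex, non-amyloid) and 0 to 1 (genotype and sex). The genes called between cohorts in Hom mice ran from 1 to 2.

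The values that changed sign were the following. For genotype in the amyloid cohort, Picalm was -0.058 with the GC contrast and -0.042 with it and without replicate 19. Under the last setting Cd2ap was -0.0033, Ptk2b 0.025 and Cass4 -0.095. Cass4 was -0.085 with limma-voom and -0.12 with sex and without replicate 19. In the non-amyloid cohort Picalm was 0.010 and Cd2ap 0.043 with the GC contrast. For the interaction with cohort, Picalm was -0.070 and Cd2ap -0.034 with the contrast, -0.061 and -0.056 with it and without replicate 19, and Cass4 was -0.023 with limma-voom, -0.050 with sex and without replicate 19, and -0.0046 with the contrast and without replicate 19. For cohort in WT mice Fermt2 was -0.015 with DESeq2 and -0.014 with no filter. For cohort in Hom mice Bin1 was 0.050 and Abca7 0.095 with the contrast, and 0.057 and 0.092 with it and without replicate 19. Cass4 there was -0.14 with limma-voom, -0.18 with sex and without replicate 19, and -0.12 with the contrast and without replicate 19.

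Leaving out single libraries changed the sign of Picalm (-0.013 to 0.057) and Cass4 (-0.12 to 0.32) for genotype in the amyloid cohort, of Cd2ap (-0.050 to 0.024) and Cass4 (-0.14 to 0.023) in the non-amyloid cohort, and of Cass4 (-0.048 to 0.39) for the interaction with cohort. It also did so for Fermt2 (-0.020 to 0.027) between cohorts in WT mice and for Sorl1 (-0.016 to 0.051) and Cass4 (-0.18 to 0.26) in Hom mice. Cass4 at 12 to 62 counts per library is the gene that depth limits most. Bulk RNA gives no level per cell type, and counts per gene show no isoform and no allele.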
